A study of Mus musculus with 9 samples.

Results

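The T cell receptor loci are the 3 clusters of gene segments from which a T cell assembles its antigen receptor. CTCF peaks in them were described here in naive and cytokine-cultured mouse CD8+ T cells with and without the transcription factors Tcf1 and Lef1. The loci were taken as fixed intervals of the mm9 build: chr14:52950000-54950000 for the alpha/delta locus, chr6:40750000-41550000 for the beta locus and chr13:19100000-19500000 for the gamma locus. Over the whole genome, peaks of the 8 CTCF lists sharing 1 bp or more were joined into regions, and the regions with a peak in an interval were kept. This gave 113 of 39574 regions, 74 in the alpha/delta locus, 29 in the beta locus and 10 in the gamma locus. An annotation of mm9 was not used here, so the names of the loci were not checked against genes, and no region is placed at a gene.

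CTCF binding had been profiled by CUT&RUN, in which a nuclease tethered to an antibody cuts out the DNA around the bound protein. The DKO group (genotype Tcf1-/-Lef1-/-) came from mice with floxed Tcf1 and Lef1 alleles, and the WT group from mice with the wild-type alleles of both. Both groups carried hCD2-Cre, a Cre recombinase under the human CD2 promoter, and the Rosa26-lsl-GFP reporter, which marks cells in which Cre has acted. Splenocytes were sorted as GFP+ TCRbeta+ CD62Lhi CD44lo-med CD8+ cells and taken at once (0 h, called fresh) or cultured with IL-7 and IL-15 for 72 h (called cultured), after which the live cells were used. The 4 groups (DKO 72 h, DKO 0 h, WT 72 h and WT 0 h) had 2 CTCF libraries each. The IgG control, 1 library of fresh WT cells, listed 5 peaks, 0 of them in the loci. The labels give no age, do not say whether animals were pooled, and do not tie replicates to different animals. The p-values therefore measure the spread between these libraries, which may be technical.

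CTCF is a zinc-finger protein that binds DNA in a set orientation and stops the extrusion of chromatin loops by cohesin. In developing thymocytes it binds at many V segments and near the enhancers and joining segments of the receptor loci, and the loops it anchors bring distant V segments close to the D and J segments for recombination. In RefSeq's GRCm38.p6 annotation, the alpha/delta locus holds 119 V, 2 D, 53 J and 2 C segments beside pseudogenes, begins with Trav1 and ends with Trac, and is followed by Dad1, a subunit of the oligosaccharyltransferase complex. In the same annotation the beta locus holds 22 V, 2 D, 13 J and 2 C segments, with 13 protein-coding genes, trypsinogens among them, between its first and its last segment (Trbv31, which lies beyond the constant genes), and the gamma locus holds 7 V, 4 J and 4 C segments. A mature alpha-beta T cell has joined segments of the beta and alpha loci and, in most joins, lost the DNA between them from that allele. The number of DNA copies of each stretch was not measured, so fewer copies and less CTCF per copy cannot be told apart in a peak list.

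The authors' lists held 10339 and 16234 peaks in cultured DKO, 30309 and 31394 in fresh DKO, 17335 and 26630 in cultured WT and 32587 and 30968 in fresh WT. The lowest fold in every CTCF list was 4.0 or just above. A missing peak means only that none was called. Values given as fold are the authors' enrichment of a peak over its local background, and a rank percentile is a peak's place by −log10 p in its own list, with 100 for the strongest peak. No read depth was given in the sources used here.

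The alpha/delta locus held 37.0 regions per Mb, the beta locus 36.2 and the gamma locus 25. Among windows of the same width laid end to end over the chromosomes, 8.91% of the 2000 kb windows held at least 74 regions, 12.8% of the 800 kb windows at least 29 and 25.6% of the 400 kb windows at least 10. The window medians were 23, 7 and 3 regions. Of regions called in all 8 libraries, the alpha/delta locus held 12 (window median 5, at least as many in 22.4% of windows), the beta locus 10 (median 2, 6.72%) and the gamma locus 2 (median 1, 35%). The receptor loci thus lay above the middle of the genome in CTCF density, the gamma locus least so. Width did not set the loci apart, with a median region width of 737 bp in the loci and 747 bp over all regions.

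**Figure D1:**
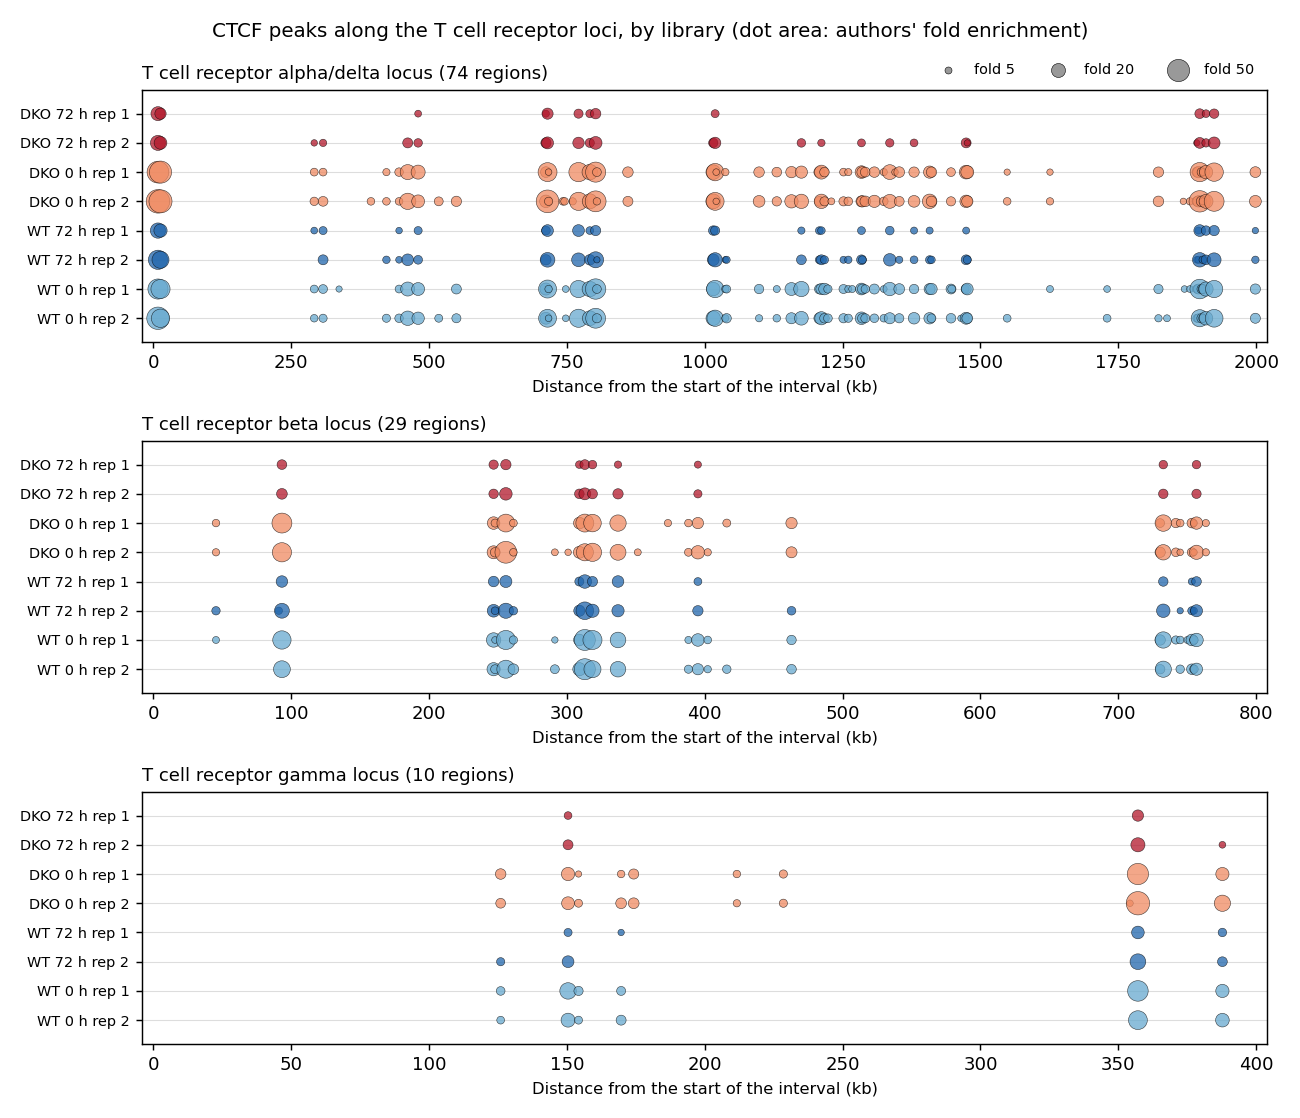
CTCF peaks along the 3 T cell receptor loci by library, with distance in kb from the start of each interval on the horizontal axis, 1 row per library and dot area in proportion to the authors' fold. The 74, 29 and 10 regions form clusters, and the rows of 72 h libraries hold fewer dots than the rows of 0 h libraries of the same genotype.

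Regions were clustered along each locus. In the alpha/delta locus the widest gap without a region ran for 277.8 kb, between a pair of strong regions at the low-coordinate end and chr14:53241642, against a median gap of 13.8 kb. In the beta locus a gap of 266.4 kb separated a group of 20 regions, which ended at 41213399, from 9 regions that began at 41479848. In the gamma locus the widest gap was 125.2 kb, between 19328819 and 19453993. In the alpha/delta locus the 200 kb from 54150000 to 54350000 held the most regions, 17, and the 200 kb from 54550000 to 54750000 held 2.

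Of the 113 regions, 24 (21.2%) were called in every one of the 8 libraries and 19 (16.8%) in a single library, against 24.2% and 14.7% of all regions of the genome. The beta locus had 10 of its 29 regions in all 8 libraries (34.5%), the alpha/delta locus 12 of 74 (16.2%) and the gamma locus 2 of 10. The 19 regions of a single library had a fold between 4.02 and 6.38. By library they numbered 0 and 0 in cultured DKO, 2 and 9 in fresh DKO, 0 and 1 in cultured WT and 5 and 2 in fresh WT. Such counts by library were not taken over the genome. Replicates shared 64.9% of the regions found in either library in cultured DKO, 82.0% in fresh DKO, 61.9% in cultured WT and 84.2% in fresh WT. Over the other regions of the genome these shares were 61.6%, 80.4%, 63.6% and 82.6%, so replicates matched in the receptor loci about as well as elsewhere.

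The strongest member by the authors' p-value was chr14:54846695-54848313, a region 1619 bp wide near the high-coordinate end of the alpha/delta locus. Its −log10 p was 54.7 and 72.6 in cultured DKO, 466.5 and 539.5 in fresh DKO, 98.7 and 176.1 in cultured WT and 422.8 and 313.6 in fresh WT. By this value it ranked 41 and 75 in the DKO 72 h lists, 10 and 2 in the DKO 0 h lists, 34 and 32 in the WT 72 h lists and 5 and 10 in the WT 0 h lists. It was thus among the 75 strongest peaks of the genome in every library. Its fold, 9.81 and 12.1 in cultured DKO, 38.1 and 46.8 in fresh DKO, 14.2 and 21.5 in cultured WT and 39.2 and 30.1 in fresh WT, placed it much lower, between rank 573 in DKO 0 h replicate 2 and rank 3251 in DKO 72 h replicate 2.

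At a given fold, the p-value of a peak caller of this kind is smaller where more reads lie in both the peak and its background, so the ranks by p and by fold can part. The widest such gap in the loci was at chr6:41504253-41505276 in the beta locus. Its fold was 4.81 and 4.63 in fresh DKO, 4.96 in WT 72 h replicate 2 and 7.44 and 7.54 in fresh WT, with no peak in the other 3 libraries. By fold it stood between the 6.21 and 35.9 percentiles of the lists, and by p between 62.2 and 87.1. A neighbour of the strongest alpha/delta region, chr14:54852320-54853688, was picked out after its values were seen. It lay 26.2 to 30.8 points higher by p than by fold in the 5 libraries that held it. Gaps of more than 20 points were found for 3 or 4 member peaks in each 0 h library and in WT 72 h replicate 2 and for 0 in the other 72 h libraries. In WT 72 h replicate 2 these were 6.56% of member peaks, against 4.74% of the list. In the other 7 libraries they were 0.0% to 3.49% of member peaks, against 4.47% to 6.14% of the lists.

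**Figure D2:**
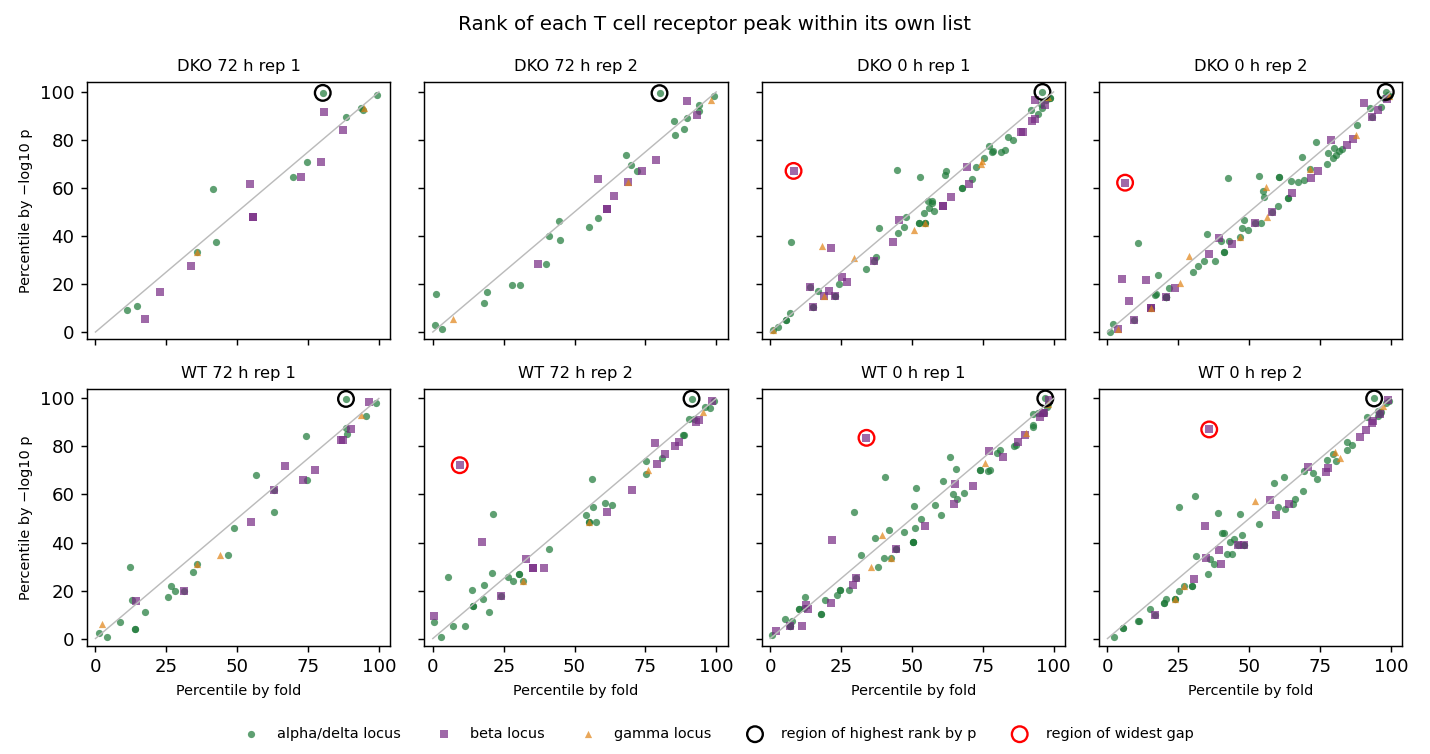
Percentile of each receptor-locus peak by −log10 p (vertical) against its percentile by fold (horizontal) within its own list, with 1 panel per library and the grey line where both are equal. The black circle is chr14:54846695-54848313, at a percentile by p of 99.5 or more in all 8 panels, and the red circle is chr6:41504253-41505276, which lies far above the line in the 5 lists that hold it.

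The first region of the alpha/delta interval had the highest fold of the locus in 6 of the 8 libraries. This region, chr14:52958201-52959142, had a fold of 20.2 and 23.4 in cultured DKO, 48.5 and 56.6 in fresh DKO, 23.9 and 37.9 in cultured WT and 41.4 and 51.3 in fresh WT, and a rank percentile of at least 96.5 in every list. The next region, chr14:52962737-52963878, had 13.1 and 16.7 in cultured DKO, 50.1 and 54.4 in fresh DKO, 17.9 and 29.7 in cultured WT and 37.5 and 34.6 in fresh WT. Another strong region, chr14:53751736-53752724, had 11.2 and 16.8 in cultured DKO, 41.3 and 44.6 in fresh DKO, 10.8 and 26.4 in cultured WT and 42.5 and 40.3 in fresh WT. In each of these the 72 h values of a genotype lay below its 0 h values with no overlap. The other 8 alpha/delta regions of all 8 libraries had a fold between 4.86 and 52.7.

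In the beta locus the highest-ranked region was chr6:41062529-41063643, with a fold of 9.92 and 14.6 in cultured DKO, 33.0 and 30.0 in fresh DKO, 18.7 and 31.9 in cultured WT and 44.8 and 45 in fresh WT. Here the DKO values lay below the WT values at both times, with no overlap at either. At chr6:41005168-41006324 the fold was 11 and 16.2 in cultured DKO, 32.6 and 48.5 in fresh DKO, 14.9 and 23.5 in cultured WT and 37.5 and 33.3 in fresh WT, and the genotypes overlapped at both times. The region chr6:40842531-40844258 had 9.71 and 11.8 in cultured DKO, 40.6 and 37.8 in fresh DKO, 13.6 and 22.7 in cultured WT and 34.4 and 29.0 in fresh WT. The DKO fold at this region was thus below WT in cultured cells and above WT in fresh cells. The fourth, chr6:41067856-41069232, had 7.44 and 10.2 in cultured DKO, 31.6 and 34.0 in fresh DKO, 10.6 and 17.9 in cultured WT and 37.2 and 29.7 in fresh WT. No order of the genotypes was common to the beta regions at 0 h. The other 6 beta regions of all 8 libraries included chr6:41506125-41507227 beyond the widest gap, picked out for its place, with 7.33 and 8.90 in cultured DKO, 15.7 and 20.7 in fresh DKO, 9.72 and 15.0 in cultured WT and 18.7 and 15.2 in fresh WT. It is the next region after chr6:41504253-41505276, the region described above, which was called in only 1 of the 4 cultured libraries.

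The gamma locus had 1 dominant region, chr13:19455968-19458127, 2160 bp wide and the widest of all members. Its fold was 13.2 and 20.4 in cultured DKO, 46.1 and 55.8 in fresh DKO, 16.4 and 25.4 in cultured WT and 43.3 and 36.2 in fresh WT, and its rank percentile was at least 93.3 in every list. Next came chr13:19250024-19250895, with 6.16 and 10.2 in cultured DKO, 18.2 and 17.0 in fresh DKO, 6.71 and 14.3 in cultured WT and 27.7 and 19.9 in fresh WT. The last region of the interval, chr13:19487224-19488263, had no peak in DKO 72 h replicate 1, 4.71 in DKO 72 h replicate 2, 17.8 and 27 in fresh DKO, 7.39 and 9.85 in cultured WT and 18.0 and 19.1 in fresh WT. At chr13:19269361-19269930 the DKO 72 h libraries had no peak, fresh DKO had 5.78 and 11.9, WT 72 h replicate 1 had 4.22 and replicate 2 none, and fresh WT had 8.31 and 10.2. The first region, chr13:19225554-19226359, was missing from both DKO libraries at 72 h and from WT 72 h replicate 1. It had 11.4 and 9.78 in fresh DKO, 6.91 in WT 72 h replicate 2 and 7.74 and 6.19 in fresh WT.

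Across the 24 regions of all 8 libraries, the median fold was 8.01 and 11.3 in cultured DKO, 31.3 and 31.4 in fresh DKO, 10.9 and 19.1 in cultured WT and 30.6 and 28.1 in fresh WT. Over the 9591 such regions of the genome it was 7.16 and 10.2 in cultured DKO, 22.8 and 23.8 in fresh DKO, 10.1 and 15.9 in cultured WT and 22.6 and 20.8 in fresh WT. The receptor regions thus stood above the genome's median in every list, by a wider margin at 0 h. The scale of fold moves with the library, and no fold was tested between lists.

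**Figure D3:**
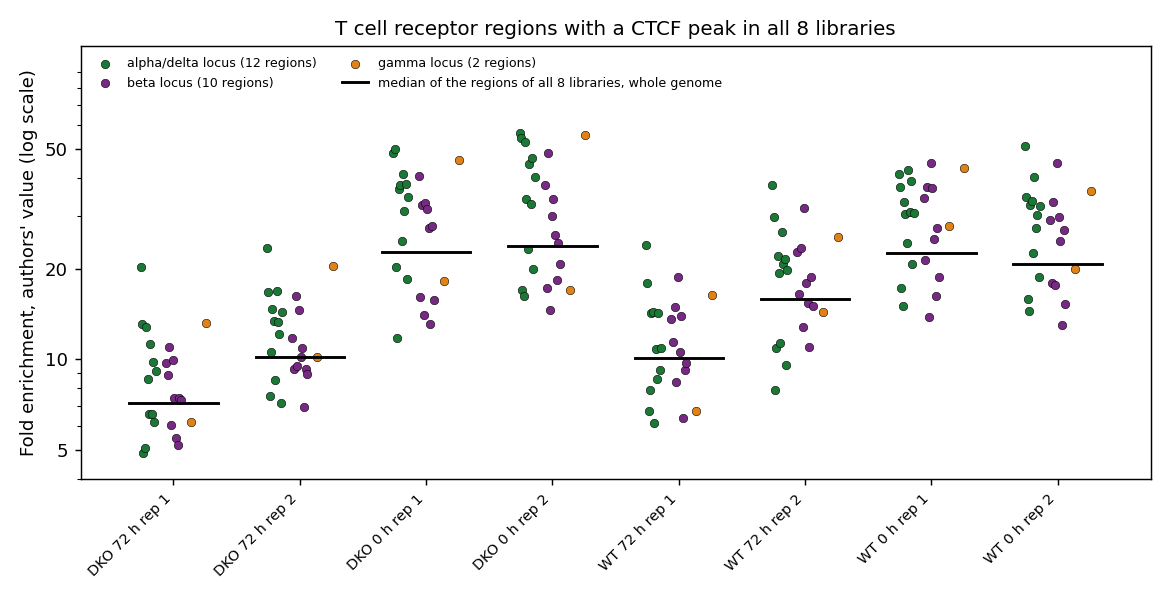
Authors' fold (log scale) of the 24 receptor regions with a peak in all 8 libraries, 1 column of points per locus and library, and the black bar the median of the 9591 such regions of the whole genome. The medians over all 24 receptor points, 8.01 to 19.1 at 72 h and 28.1 to 31.4 at 0 h, lie above the black bar in every library.

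Cultured and fresh cells were set side by side to ask how CTCF peaks of the loci differ once the cells have been kept in cytokines. The loci held fewer listed peaks at 72 h. There were 25 and 38 peaks in cultured DKO, 86 and 96 in fresh DKO, 42 and 62 in cultured WT and 89 and 86 in fresh WT, and no 72 h library overlapped the 0 h libraries of its genotype. The mean was 31.5 ± 9.19 in cultured DKO and 91.0 ± 7.07 in fresh DKO (SD, n = 2 each), and 52.0 ± 14.1 in cultured WT and 87.5 ± 2.12 in fresh WT (SD, n = 2 each). The 72 h minus 0 h difference over both genotypes was -47.5 peaks (two-sided exact permutation test within genotype, 36 assignments, n = 4 and 4, p = 0.0556, which is the lowest value possible). In the alpha/delta locus the means were 18.0 ± 8.49 in cultured DKO, 57.5 ± 4.95 in fresh DKO, 32.5 ± 9.19 in cultured WT and 59.5 ± 0.707 in fresh WT (SD, n = 2 each). In the beta locus they were 10 ± 0.0 in cultured DKO, 24.0 ± 1.41 in fresh DKO, 14.5 ± 4.95 in cultured WT and 22 ± 1.41 in fresh WT (SD, n = 2 each). By locus the difference was -33.25 peaks in alpha/delta, -10.75 in beta and -3.5 in gamma, each with the same exact permutation p of 0.0556.

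The whole lists were shorter at 72 h as well, so the loci were also read as a share of each list. Of every 10000 listed peaks, 24.2 and 23.4 lay in the loci in cultured DKO, 28.4 and 30.6 in fresh DKO, 24.2 and 23.3 in cultured WT and 27.3 and 27.8 in fresh WT. Each 72 h share was below every 0 h share, with a difference of -4.735 per 10000 (two-sided exact permutation, n = 4 and 4, p = 0.0556). With every list shortened to its top 10339 peaks the difference was -4.75 peaks, or -4.594 per 10000 (exact permutation p = 0.0556 for both). The loci thus made up a smaller part of the 72 h lists, at the lowest p these 8 libraries can give, which is not past 0.05.

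In the alpha/delta locus every 72 h share lay below every 0 h share. Its peaks made up 11.6 and 14.8 of 10000 in cultured DKO, 17.8 and 19.4 in fresh DKO, 15.0 and 14.6 in cultured WT and 18.4 and 19.1 in fresh WT. The beta locus made up 9.67 and 6.16 in cultured DKO, 7.59 and 7.96 in fresh DKO, 6.35 and 6.76 in cultured WT and 7.06 and 6.78 in fresh WT, so its DKO shares overlapped between times. The gamma locus made up 2.90 and 2.46 in cultured DKO, 2.97 and 3.19 in fresh DKO, 2.88 and 1.88 in cultured WT and 1.84 and 1.94 in fresh WT, with no common order of the times. In lists of equal length the beta difference turned round, to 1.0 peak more at 72 h (exact permutation p = 0.333), while alpha/delta had 5.5 peaks fewer (-5.5, p = 0.0556). The difference between the loci was not tested.

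**Figure D4:**
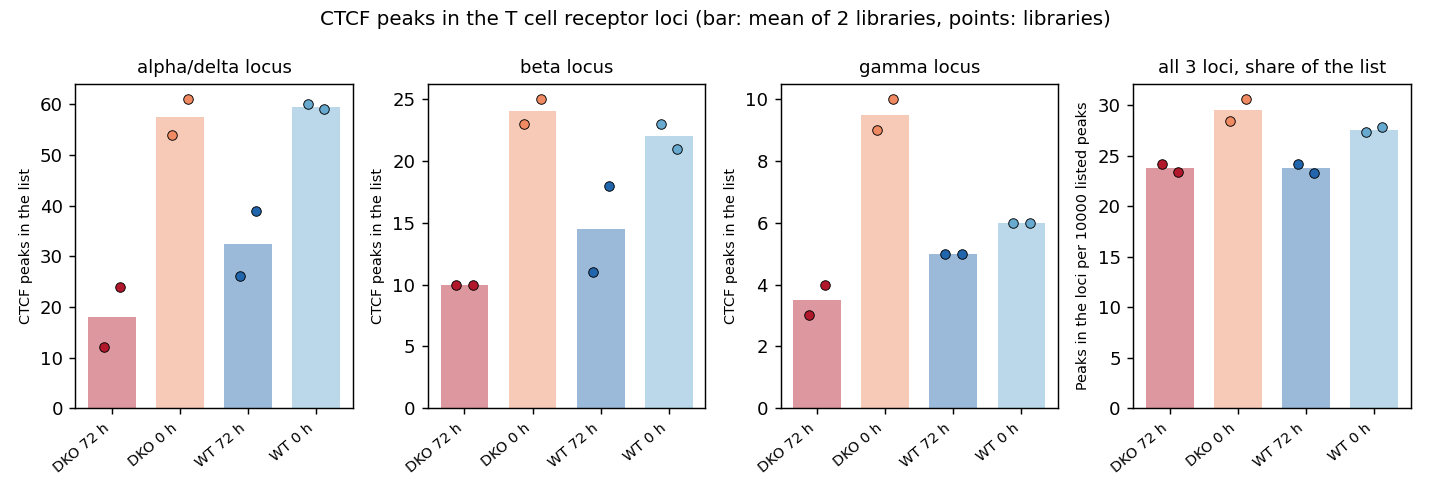
Number of listed CTCF peaks in each locus and, at the right, peaks of all 3 loci per 10000 listed peaks, with points for the 2 libraries of a group and bars for their mean. The share panel shows 23.3 to 24.2 at 72 h and 27.3 to 30.6 at 0 h in both genotypes.

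Presence was then compared region by region. In DKO cells 0 regions of the loci had a peak in both 72 h libraries and neither 0 h library, as for 0.116% of all regions, and 45 (39.8%) had a peak in both 0 h libraries and neither 72 h library, against 29.1% of all regions. In WT cells these counts were 0 against 0.576% of all regions, and 20 (17.7%) against 13.0%. The 45 regions of DKO cells lay 28 in alpha/delta, 11 in beta and 6 in gamma, and the 20 of WT cells lay 15, 4 and 1. Of these, 13 regions were on both lists, 28.9% of the DKO list and 65.0% of the WT list. Over the whole genome 2973 regions were on both lists, of 11501 on the DKO list and 5126 on the WT list. Most of the WT list was thus on the DKO list there as well. These counts carry no p-value, as the lowest exact one for 2 libraries and 2 is 0.333. Without WT 72 h replicate 2, the longer of the WT 72 h lists, the WT count was 39. In lists of equal length, regions of 0 h alone numbered 3 in DKO and 5 in WT. Regions of 72 h alone then numbered 3 in DKO and 0 in WT.

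Regions found only at 0 h were weak to middling in strength. In DKO cells their fold was 4.07 to 15.3 in replicate 1 and 4.32 to 21.6 in replicate 2, with medians of 7.94 and 8.70. The strongest by rank on both lists was chr14:54106887-54107560, with 13.3 and 18.2 in fresh DKO, 17.2 and 12.6 in fresh WT and no peak in any 72 h library. The same pattern held at chr14:54257162-54257886 (fold 11.4 and 15.4 in DKO, 10.3 and 7.64 in WT, all at 0 h), chr14:54240849-54241545 (9.97 and 11.7, 7.31 and 8.38), chr14:54048281-54048704 (11.4 and 14.1, 9.09 and 5.34) and chr14:54850629-54851230 (8.27 and 11.6, 8.73 and 9.17). In the beta locus it held at chr6:41479848-41480858 (7.94 and 10.9, 11.1 and 9.13). Two-sided Fisher's exact tests of presence at 72 h against 0 h gave these and the others of the 13 regions an unadjusted p of 0.0286 (11.5% of members, against 7.51% of all regions). In the other direction 0 members had such a p, against 0.0783% of all regions. After Benjamini-Hochberg adjustment over 39574 regions, 0 had an adjusted p under 0.05 (0.0% of all regions), and the smallest was 0.376. The lowest p this test can give with 4 libraries against 4 is 0.0286. An adjusted p under 0.05 would thus need most regions of the genome to reach it, and the 0 says nothing about single regions.

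Some DKO regions of 0 h alone were called in cultured WT. At chr14:54360559-54361574 fresh DKO had 11 and 11.3, WT 72 h replicate 2 had 5.83 and fresh WT had 13.4 and 8.02, with no peak in the other 72 h libraries. Of the 45 regions, 7 had a peak in WT 72 h replicate 1 and 22 in replicate 2. In WT cells 0 of the 20 regions had a peak in either DKO library at 72 h. The DKO 72 h lists were shorter, with 10339 and 16234 peaks against 17335 and 26630 in WT. Such shares were not taken over the genome, so these counts are not a result about the loci. The single region of the loci with a peak at 72 h and none at 0 h was in the beta locus and in WT 72 h replicate 2 alone, with a fold of 5.55.

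Regions called in all 4 libraries at 0 h were followed to 72 h, since a region that is strong at the start can be called in a weaker list. There were 71, and 24 (33.8%) had a peak in all 4 libraries at 72 h, against 39.2% of the 24438 such regions of the genome. By library the receptor regions were found at 33.8% and 52.1% in cultured DKO and at 57.7% and 78.9% in cultured WT, against 40.9% and 62.7% in DKO and 65.2% and 86.9% in WT over the genome. The loci were lower in all 4 libraries. Alpha/delta was found at 25.5% and 51.1% in DKO and 55.3% and 76.6% in WT, and beta at 55.6% and 55.6% in DKO and 61.1% and 88.9% in WT.

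Strength at 0 h was then held within ranges of the mean fold over the 4 libraries at 0 h. Of 20 alpha/delta regions with a mean of 10 to 20, 3 and 10 were found in cultured DKO and 13 and 18 in cultured WT (15.0% to 90.0% by library), against 40.1%, 77.6%, 79.5% and 96.7% of the 9258 such regions of the genome. Of 11 alpha/delta regions with a mean of 20 or more, 9 and 11 were found in cultured DKO and 10 and 11 in cultured WT. In the beta locus 4, 4, 5 and 6 of 6 regions with a mean of 10 to 20 were found in the same 4 libraries, and all 6 of the strongest in each. Of 6 beta regions with a mean under 10, 0, 0, 0 and 4 were found. Of 16 alpha/delta regions with a mean under 10, 0 and 3 were found in cultured DKO and 3 and 7 in cultured WT. These were 0.0%, 18.8%, 18.8% and 43.8%, against 4.34%, 20.7%, 25.6% and 67.3% of the 8828 such regions of the genome. Alpha/delta regions of weak and of middle strength were thus found less often than the genome's regions of that strength in all 4 libraries at 72 h. In cultured DKO the shortfall of the weak regions was small. The weak beta regions were also lower in each, at 0.0%, 0.0%, 0.0% and 66.7%. This is a description over few regions that share a locus and was not tested.

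**Figure D5:**
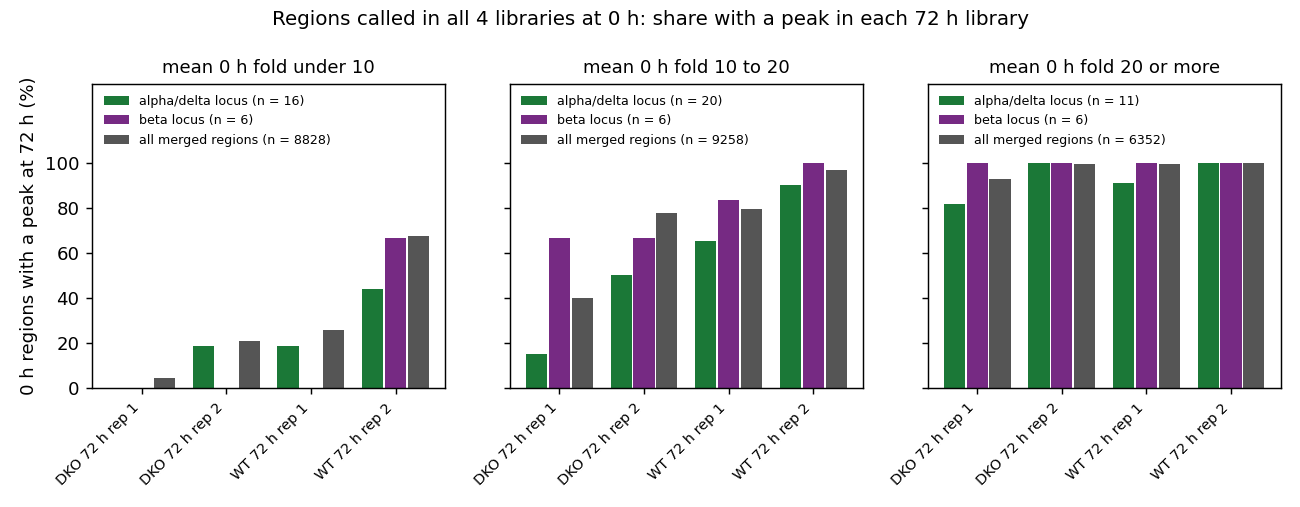
Share of regions called in all 4 libraries at 0 h that had a peak in each 72 h library, by mean fold at 0 h, for the alpha/delta locus (green), the beta locus (purple) and all regions of the genome (grey). In the middle panel the alpha/delta bars, 15.0% to 90.0%, are the lowest in every library, and the gamma locus, with too few regions, is not drawn.

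Every member region of DKO 72 h replicate 1 was also called in the other 7 libraries, so its 24 regions are the 24 of all 8 libraries. The longest stretch of the alpha/delta locus without such a region was marked out after the values were seen. It was chr14:53970469-54845775, over 875.3 kb, with 42 regions in a row. By this choice DKO 72 h replicate 1 held 0 of the 42, and the choice also favours low counts in the other 72 h libraries, so the values are a description and are set against nothing. DKO 72 h replicate 2 held 8, fresh DKO held 30 and 31, cultured WT held 9 and 19, and fresh WT held 35 and 33.

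Of the 42 regions, 25 were called in all 4 libraries at 0 h, with a mean fold of 5.89 to 19.9 and a median of 10.9, and 8 of these had no peak in any 72 h library. In the gamma locus the longest run without a region of all 8 libraries, chosen in the same way, was chr13:19253835-19454409, with 6 regions over 200.6 kb. Cultured DKO held 0 and 0 of them, fresh DKO 5 and 6, cultured WT 1 and 0 and fresh WT 2 and 2. Whether the cells differed in the DNA they carried over these stretches was not tested.

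DKO cells were then set against WT cells, the comparison of the series that bears on Tcf1 and Lef1. Over both times the loci held 8.5 peaks fewer in DKO (difference -8.5, two-sided exact permutation within time, 36 assignments, n = 4 and 4, p = 0.444). Leaving out 1 library gave -3.5 (WT 72 h replicate 2 omitted), -5.25 (DKO 72 h replicate 1 omitted) and -13.5 (WT 72 h replicate 1 omitted), among others. By locus the DKO minus WT difference was -8.25 in alpha/delta (exact permutation p = 0.222), -1.25 in beta (p = 0.778) and 1.0 in gamma (p = 0.444). With lists of equal length the alpha/delta difference was 2.0 peaks, higher in DKO (exact permutation p = 0.111), and that of all 3 loci was 1.25 (p = 0.667). The 72 h minus 0 h difference of DKO minus that of WT was -24.0 peaks (exact permutation test, p = 0.167), and 3.5 in lists of equal length (p = 0.333). None of these differences was past the threshold of 0.05. As a share of the list, DKO had 0.9871 peaks of 10000 more in the loci than WT (exact permutation p = 0.222), and 2.571 more among peaks with a −log10 q of at least 5 (p = 0.0556, the lowest possible).

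Among fresh cells, 6 regions (5.31%) were DKO-only, called in both DKO libraries and in neither of WT, against 2.73% of all regions, and 5 (4.42%) were WT-only, against 4.88%. The 6 DKO-only regions lay 3 in gamma, 2 in alpha/delta and 1 in beta, and all 5 WT-only regions lay in alpha/delta. Leaving out DKO 0 h replicate 1 gave 15 DKO-only regions. Leaving out WT 0 h replicate 2 gave 10 WT-only regions, and leaving out DKO 0 h replicate 2 gave 8. In lists of equal length there were 0 DKO-only regions and 1 WT-only region.

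The 3 DKO-only regions of the gamma locus followed one another along the chromosome. They were chr13:19273877-19274557 with a fold of 10.5 and 11.9, chr13:19311436-19311933 with 5.79 and 5.48 and chr13:19328187-19328819 with 6.96 and 6.92 in the DKO 0 h libraries, and none of the other 6 libraries had a peak at any of them. Of the 7 other gamma regions, 6 were called in both libraries of fresh WT and 1 in DKO 0 h replicate 2 alone. The gamma locus held 9 and 10 peaks in fresh DKO and 6 and 6 in fresh WT, without overlap, and 3 and 4 in cultured DKO and 5 and 5 in cultured WT, again without overlap but in the other direction. Counted as regions, cultured DKO held 2 and 3 and cultured WT 4 and 4, and the 0 h counts were the same.

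The alpha/delta DKO-only regions were chr14:53810552-53810836 (fold 11.4 and 10.3) and chr14:53970469-53971067 (4.58 and 4.32), and the beta one was chr6:41512953-41513818 (5.32 and 5.43), the last region of its interval. Rank percentiles of the 6 regions had a median of 24.7 and 26.5 in the DKO 0 h lists. The WT-only regions were chr14:53697844-53698303 (fold 4.69 and 4.56 in fresh WT), chr14:53989486-53989812 (6.72 and 9.13), chr14:54172988-54173677 (7.06 and 7.82), chr14:54422176-54422477 (5.82 and 6.36) and chr14:54679400-54679688 (4.69 and 6.19). Of these, chr14:53989486-53989812 also had a peak of 5.33 in WT 72 h replicate 2. Both lists were made of weak peaks, none with a fold above 11.9.

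Among cultured cells, 0 regions were DKO-only, against 0.0303% of all regions, and 6 (5.31%) were WT-only, against 6.37%. All 6 had been called in each library of fresh DKO and fresh WT. The strongest at 0 h was chr14:54357390-54358084, with 15.3 and 21.6 in fresh DKO, 5.14 and 6.91 in cultured WT and 12.5 and 13.4 in fresh WT. Beside the strongest region of the locus, chr14:54844592-54845775 had 13.4 and 13.1 in fresh DKO, 5.12 and 5.30 in cultured WT and 10.2 and 8.15 in fresh WT. The last alpha/delta region, chr14:54948043-54948801, had 12 and 14.5, 4.18 and 5.64, and 10.7 and 10.4 in the same groups.

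The others were chr14:54157380-54158081 (12.1 and 9.84 in fresh DKO, 6.08 and 6.43 in cultured WT, 9.54 and 12 in fresh WT), chr14:53395622-53396057 (7.51 and 6.01, 4.39 and 4.70, 6.38 and 7.50) and chr6:41502594-41503934 in the beta locus (9.52 and 8.46, 5.15 and 6.92, 13.9 and 11.4). Their WT 72 h peaks were weak, with a median rank percentile of 9.80 and 23.0. Leaving out DKO 72 h replicate 2 gave 15 such regions, leaving out WT 72 h replicate 1 gave 25, and lists of equal length gave 0. The first beta region, chr6:40795184-40795881, had 5.79 and 5.48 in fresh DKO, 7.27 in WT 72 h replicate 2 and 5.03 in WT 0 h replicate 1, with no peak in the other 4 libraries.

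Fisher's exact test of presence in 4 DKO against 4 WT libraries gave 0 members an unadjusted p under 0.05 in either direction, against 0.0126% of all regions for DKO and 0.498% for WT. After Benjamini-Hochberg adjustment over 39574 regions, 0 regions of the genome had an adjusted p under 0.05 (0.0% of those tested). As the lowest p of this test is 0.0286, that outcome too says nothing about single regions. The unadjusted p shows only that no receptor region had a peak in every library of one genotype and in none of the other. In the 71 regions called in all 4 libraries at 0 h, the median fold was 13.1 and 14.1 in DKO and 12.7 and 12 in WT, against 12.7 and 13.2 in DKO and 12.9 and 11.9 in WT over the 24438 such regions of the genome. Both DKO medians of the loci lay above both WT medians, while the genome's medians overlapped. This was not tested.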

How the data were processed

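CTCF CUT&RUN peak lists in narrowPeak format were analysed, 1 per library and not called on pooled samples, for 8 CTCF libraries in 4 groups of 2 and 1 IgG library. Sample titles gave the groups and the replicate numbers. The submitters' processing notes name the tools FastQC, Bowtie2 2.2.5 and MACS2 2.1.1 and the build mm9. Which control and thresholds were set for calling, and how reads mapping to several places were treated, is not given in the sources used here. For every peak the authors deposited a fold over local background, a −log10 p and a −log10 q from their caller. The authors' deposited score entered no comparison, and their summit distance served alternatives only. Autosomes and X were kept, which dropped 5 CTCF peaks.

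Peaks were merged at 1 bp overlap with Python 3.11.15 and pandas 2.3.3. Peak numbers and shares were compared by exact permutation over libraries, presence per region by Fisher's exact test (SciPy 1.17.1) with Benjamini-Hochberg adjustment over all regions. The merging, specific-region and permutation steps were tested on simulated lists and returned what was planted. Regions named were, per locus, the 4 of highest mean rank percentile (an absent peak counted as 0), the first and the last, and group-specific regions, up to 6 per contrast and direction. Members, rules and lists were chosen with earlier results of these data known. Alternatives were lists cut to equal length, a minimum −log10 q of 5, stricter overlap, summit distance, summits inside the locus, regions in place of peaks, presence in 1 library or more, a replicate block and leaving out single libraries. Absolute depth is unknown, so no interval is given for a peak's value. No sequence is printed, since a genome of mm9 was not used here.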

Additional observations from a re-analysis of the deposited data

Results flagged for a closer look

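The number of peaks in the gamma locus differed between genotypes in opposite directions at the 2 times. The DKO minus WT difference was 3.5 peaks at 0 h, where both DKO libraries lay above both WT libraries, and -1.5 at 72 h, where both lay below. The difference between the times was not tested. With the −log10 q minimum of 5 the gamma locus held 3 and 3 peaks in cultured DKO and 4 and 5 in cultured WT, and 8 and 8 in fresh DKO and 6 and 6 in fresh WT, so the pattern held there. In lists of equal length it held 3 and 3 in cultured DKO and 2 and 3 in cultured WT, and 3 in each library at 0 h, so it did not. At 72 h the whole DKO lists held fewer peaks as well, 10339 and 16234 against 17335 and 26630 in WT, and the part of this in the result was not tested.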

How the results depend on the processing

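The fewer peaks of the 3 loci at 72 h, and the lower share of the list, kept their direction under every alternative run, with differences of -52.5 to -42.5 peaks and of -5.287 to -4.184 per 10000 when single libraries were left out, and of -4.75 peaks in lists of equal length. Lists of equal length turned round the DKO minus WT difference of all 3 loci (1.25) and of alpha/delta (2.0), the beta difference between times (1.0) and the genotype difference in the time difference (3.5), and the beta DKO minus WT difference ran from -3.0 to 0.5, the last without WT 72 h replicate 2. Leaving out single libraries moved the DKO minus WT difference between -13.5 and -3.5 for all 3 loci and between -11.5 and -5.0 for alpha/delta, where it was -10.0 with an exact permutation p of 0.0556 without DKO 0 h replicate 2. It moved the difference between genotypes in the time difference between -34.0 and -14.0, the low ends with WT 72 h replicate 1 omitted and the high ends with WT 72 h replicate 2 omitted. The DKO minus WT share moved between 0.4354 per 10000 with DKO 0 h replicate 2 omitted and 1.539 with its replicate 1 omitted. Counts of group-specific regions were small and moved. In lists of equal length, DKO-only and WT-only regions numbered 0 and 1 at 0 h and 2 and 0 at 72 h, regions of 72 h alone in DKO numbered 3, and regions of 0 h alone numbered 3 in DKO and 5 in WT. With a peak in at least 1 library, they numbered 17 and 12 at 0 h, 26 for WT-only at 72 h, and in WT 33 of 0 h alone and 1 of 72 h alone. With summits within 100 bp, DKO-only regions at 72 h, regions of 72 h alone in DKO and regions of 72 h alone in WT numbered 1 each, and WT-only regions at 0 h numbered 3 at the −log10 q minimum. Leaving out libraries gave 8 to 15 DKO-only and 6 to 10 WT-only regions at 0 h, 6 to 25 WT-only regions at 72 h, and 22 to 39 regions of 0 h alone and 0 to 1 of 72 h alone in WT. The cause of these changes was not tested. Replicate deviations hardly correlated between groups (0.015 to 0.042 over 9591 regions). The labels do not say whether replicate numbers pair the libraries, and these values cannot settle it. With a replicate block the difference of -47.5 peaks had an exact permutation p of 0.125, the smallest that 16 assignments allow. The block could change no call, as no p under 0.05 is possible with or without it.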
